A study of Homo sapiens with 6 samples.

Results

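ATF4, CHOP (encoded by DDIT3) and the stress effectors grouped with them here are 10 genes: ATF4, ATF5, DDIT3, TRIB1, TRIB2, TRIB3, CEBPB, CEBPG, GDF15 and STC2. They were chosen by name, as genes of 1 pathway, with earlier results of these arrays known. Of the 10, 8 had at least 1 probe set annotated to their symbol alone, among 14884 genes so named on the array, and TRIB2 had 2 such probe sets. CEBPB and CEBPG had none and were skipped. All 8 lay above the median probe set on every array.

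The arrays profiled BE(2)-C_tetoff_KDM4C cells, a derivative of the human neuroblastoma line BE(2)-C, after 6 days without doxycycline (3 arrays) or with it (3 arrays). As its name says, this derivative holds a tet-off construct of KDM4C, which encodes a histone H3 lysine 9 demethylase. Doxycycline silences such a construct, so KDM4C was induced in the cells without it. All cells grew in DME/F-12 with dialysed serum, and all carry the construct. The labels do not say whether the line is 1 clone. Without arrays of cells that lack the construct, the induction of KDM4C and the absence of doxycycline cannot be told apart.

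ATF4 is the transcription factor at the centre of the integrated stress response. Stress kinases phosphorylate the initiation factor eIF2alpha, which lowers general translation but lets ATF4 mRNA be translated more, so the factor is known to be controlled largely after transcription. ATF4 pairs with C/EBP proteins on composite C/EBP-ATF elements of its targets, among them the genes of amino acid supply and of further factors such as CHOP and ATF5. TRIB3 and the secreted proteins GDF15 and STC2 are known effectors of the same response.

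Promoter letters are shown for some genes with a match to any of the motifs named below. They do not cover every gene that moved, and CEBPG among them was not measured. The letters were read from RefSeq windows on GRCh38.p14, which span 250 bases before to 50 after each annotated start. Motifs were searched on both strands: the core of the C/EBP-ATF element (TGATGNAA), the AP-1 element of JUN and FOS dimers (TGANTCA) and the CCAAT box (CCAAT). In the windows of all 27305 genes of the table they occurred in 4.46%, 9.37% and 39.7% of the genes, in that order. Windows were found for 9 of the 10 genes, all but TRIB1. The C/EBP-ATF core was in 0 of the 7 measured genes with a window and in CEBPG, 42 bases before 1 of its starts. The AP-1 letters were in 2 of the 7, DDIT3 and ATF5, and the CCAAT letters in 3, DDIT3, GDF15 and STC2. No match says only that these letters are not in this window. A match is no evidence of binding. The stretch of DDIT3 next to its start, up to the neighbouring gene MBD6, holds 2 CCAAT boxes, 100 and 76 bases before the start, in capitals:
DDIT3, chr12:57520515-57520712, minus strand: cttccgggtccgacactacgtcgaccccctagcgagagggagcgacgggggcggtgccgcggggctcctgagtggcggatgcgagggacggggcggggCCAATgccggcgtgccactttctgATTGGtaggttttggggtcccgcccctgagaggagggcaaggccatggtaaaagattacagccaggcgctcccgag

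The AP-1 letters of DDIT3 lay farther from its start than the stretch above, past the border with MBD6. The AP-1 letters of the 2 genes, again in capitals, lay 241 bases before the DDIT3 start and 188 bases before an ATF5 start:
DDIT3, chr12:57520738-57520764, minus strand: gcgcgcgcaTGACTCAcccacctcctc
ATF5, chr19:49928707-49928735, plus strand: ggagagtgctgTGACTCAtgctggactct

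For comparison, the C/EBP-ATF core was in 10 of 31 measured genes with a window in the list of other ATF4 and CHOP targets described below. Of the 8 such genes called higher without doxycycline it was in ASNS, GARS1 and MARS1. The element of ASNS, 68 bases before its start, is the textbook case. CEBPG is shown beside them, and the capitals mark the core or its reverse complement:
CEBPG, chr19:33374060-33374089, plus strand: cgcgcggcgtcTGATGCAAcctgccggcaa
ASNS, chr7:97872458-97872487, minus strand: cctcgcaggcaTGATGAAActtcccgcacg
GARS1, chr7:30594834-30594863, plus strand: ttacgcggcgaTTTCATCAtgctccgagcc
MARS1, chr12:57488053-57488082, plus strand: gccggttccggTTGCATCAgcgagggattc

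The induced gene was checked first. KDM4C had log2 expression values of 8.97, 9.08 and 9.02 in replicates 1, 2 and 3 without doxycycline, against 7.71, 7.77 and 7.80 with it. The direction was that of the labels. The arrays correlated at 0.991 to 0.993 within groups and 0.990 to 0.991 between groups. Of the noradrenergic neuroblastoma markers, 6 of 9 were measured. All 6, among them PHOX2A, HAND2, GATA3 and DBH, lay above the median probe set and 0 passed the test. Of their log2 differences (no doxycycline minus doxycycline) 5 were positive, where 49.4% of all named genes were. TH was at 0.34 (limma adjusted p = 0.190), DBH at 0.28 (limma adjusted p = 0.244) and HAND2, the negative one, at -0.04. Of 15 markers of other cell types, 9 were measured and 0 passed. Their summed log2 value was 40.6 to 42.2 without doxycycline and 41.2 to 41.5 with it. Of the 9, 4 averaged below the median probe set: the endothelial genes VWF and PECAM1, the myeloid gene TYROBP and the Schwann cell gene SOX10. The others averaged above it. Without and with doxycycline KRT18 was at 7.55 and 7.43, S100B at 5.66 and 5.84, and CD68 at 5.75 and 5.74. KRT8 was at 4.72 and 4.79, and EPCAM at 4.25 and 4.20. The dimmer KRT18 probe set lay below the median probe set, at 3.40 and 3.54. These markers thus did not all go the same way.

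Of the 8 measured genes, 5 rose without doxycycline and 0 fell (limma, Benjamini-Hochberg adjusted p below 0.05 over all probe sets). They were DDIT3, TRIB3, ATF5, GDF15 and STC2, with increases of 2.23- to 2.58-fold. Among all named genes, 0.43% were called higher and 0.134% lower. The 8 were chosen with earlier results of these arrays known, so their share of calls is a description and not independent evidence. By size of increase the 5 ranked 8, 10, 13, 15 and 17 of 14884, in the order just given. ATF4 was 1.24-fold higher and did not pass, and TRIB1 and TRIB2 did not pass either. The median log2 difference (no doxycycline minus doxycycline) of the 8 was 1.17, against -0.0020 for all named genes. The values come from bulk RNA, so a larger change in some cells and a smaller one in all cells cannot be told apart.

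**Figure D1:**
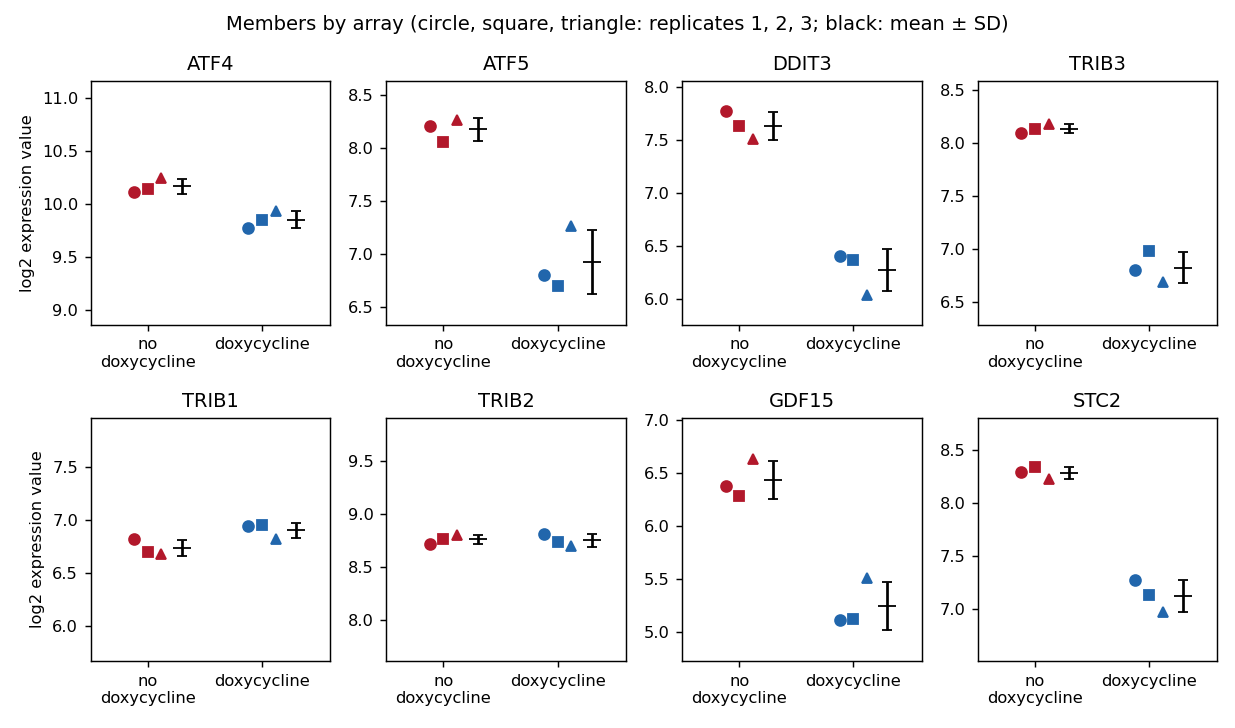
Log2 expression values (vertical axes, each spanning the same range) of the 8 measured genes on the 3 arrays without doxycycline (red, left) and the 3 with it (blue, right), with the mean ± SD in black. ATF5, DDIT3, TRIB3, GDF15 and STC2 are clearly higher without doxycycline, ATF4 slightly so, while TRIB2 overlaps and TRIB1 lies lower without it.

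Of the transcription factors, ATF4 itself had log2 values of 10.11, 10.14 and 10.25 without doxycycline, against 9.77, 9.85 and 9.93 with it. The groups did not overlap, yet the difference of 0.31 (SE 0.07, 95% interval 0.14 to 0.49) missed the threshold (limma adjusted p = 0.179). ATF4 ranked 487 of 14884 by size of increase.

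DDIT3 encodes CHOP, a C/EBP-family factor that ATF4 induces and that is known to promote cell death under lasting stress. Its values were 7.77, 7.63 and 7.51 without doxycycline, against 6.41, 6.37 and 6.04 with it. Every array without doxycycline lay more than 1.10 above every array with it on the log2 scale. The difference was 1.36 (SE 0.12, limma adjusted p = 0.0184), or 2.58-fold with a 95% interval of 2.11 to 3.15.

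ATF5, a relative of ATF4 whose mRNA is translated under the same conditions, had values of 8.21, 8.05 and 8.26 without doxycycline, against 6.80, 6.69 and 7.26 with it. Replicate 3 stood above its 2 fellows with doxycycline, and the SD was 0.11 without doxycycline and 0.30 with it. The increase was 2.39-fold, a log2 difference of 1.26 (SE 0.15, limma adjusted p = 0.0414). Its interval in folds, 1.85 to 3.08, was the widest of the 5 called genes. Both increases were set against that of ATF4 within each array.

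The gap between DDIT3 and ATF4 was 1.05 larger without doxycycline on the log2 scale, and that between ATF5 and ATF4 was 0.94 larger. In both gaps the groups did not overlap. A two-sided exact permutation test gave p = 0.1 for each, the smallest that 3 against 3 arrays allow (0.125 adjusted over the 5 gaps computed). The size of a gap between 2 probe sets has no meaning by itself, and only its change between the groups is compared.

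The tribbles pseudokinases share a fold and act as scaffolds that bring proteins to ubiquitin ligases, and TRIB3 is the one known as an ATF4 and CHOP target. TRIB3 had values of 8.10, 8.13 and 8.18 without doxycycline, against 6.81, 6.98 and 6.69 with it. Its log2 difference was 1.31 (SE 0.09, limma adjusted p = 0.0130), or 2.48-fold with an interval of 2.14 to 2.88. By p it stood at rank 8 of 53617 probe sets, the highest place among the 8 genes. The paralogs did not share this increase.

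TRIB1 had values of 6.82, 6.69 and 6.68 without doxycycline, against 6.94, 6.95 and 6.82 with it, so the groups nearly touched without overlapping. The difference was -0.17 with an interval of -0.35 to 0.0028 (limma adjusted p = 0.410). TRIB2 had values of 8.72, 8.77 and 8.81 without doxycycline, against 8.82, 8.74 and 8.70 with it. The groups overlapped, and the difference of 0.01 had an interval of -0.15 to 0.17 (limma adjusted p = 0.965). The dimmer TRIB2 probe set was at 0.11 (interval -0.12 to 0.34), also with overlapping groups.

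Within arrays, TRIB3 minus TRIB1 was 1.28, 1.44 and 1.51 without doxycycline, against -0.13, 0.04 and -0.13 with it, a change of 1.48. TRIB3 minus TRIB2 was -0.62, -0.64 and -0.62 without doxycycline, against -2.01, -1.75 and -2.01 with it, a change of 1.30. The groups were apart in both, each with an exact permutation p of 0.1 (two-sided, adjusted 0.125), again the smallest possible.

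**Figure D2:**
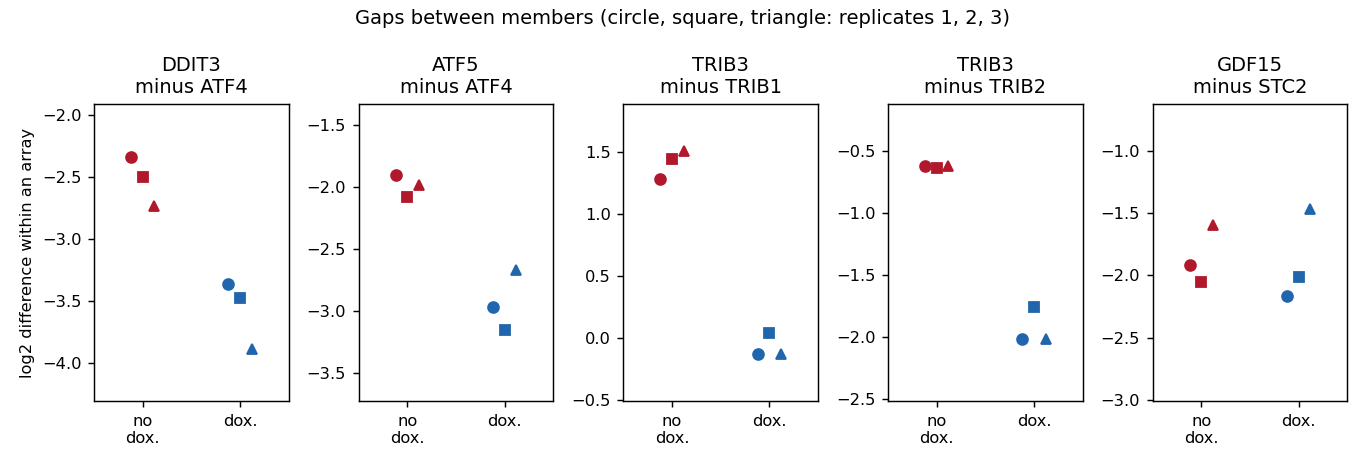
Log2 difference between 2 genes within each array (vertical axes, each spanning the same range), for the 5 gaps, on the 3 arrays without doxycycline (red, left) and the 3 with it (blue, right). The groups do not overlap in the gaps from ATF4 to DDIT3 and ATF5 and from TRIB1 and TRIB2 to TRIB3. In the gap from STC2 to GDF15 they overlap.

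The 2 secreted effectors rose by like amounts. GDF15, a stress cytokine of the TGF-beta superfamily that acts on appetite through GFRAL and RET, had values of 6.38, 6.29 and 6.64 without doxycycline, against 5.11, 5.12 and 5.51 with it. Replicate 3 was the highest of its group in both conditions. The increase was 2.28-fold (95% interval 1.80 to 2.88), a log2 difference of 1.19 with an SE of 0.14 (limma adjusted p = 0.0381).

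STC2, a stanniocalcin that inhibits the IGFBP proteases PAPPA and PAPPA2, had values of 8.29, 8.34 and 8.23 without doxycycline, against 7.28, 7.13 and 6.97 with it. The spread without doxycycline was small (SD 0.06, against 0.15 with it). The increase was 2.23-fold, a log2 difference of 1.16 (SE 0.09, limma adjusted p = 0.0138). Between GDF15 and STC2 the gap changed by 0.03, with overlapping groups (exact permutation p = 1, two-sided). The sign of that change turned when replicate 1 or replicate 2 of the doxycycline group or replicate 3 of the group without it was left out, to -0.11, -0.04 and -0.10.

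**Figure D3:**
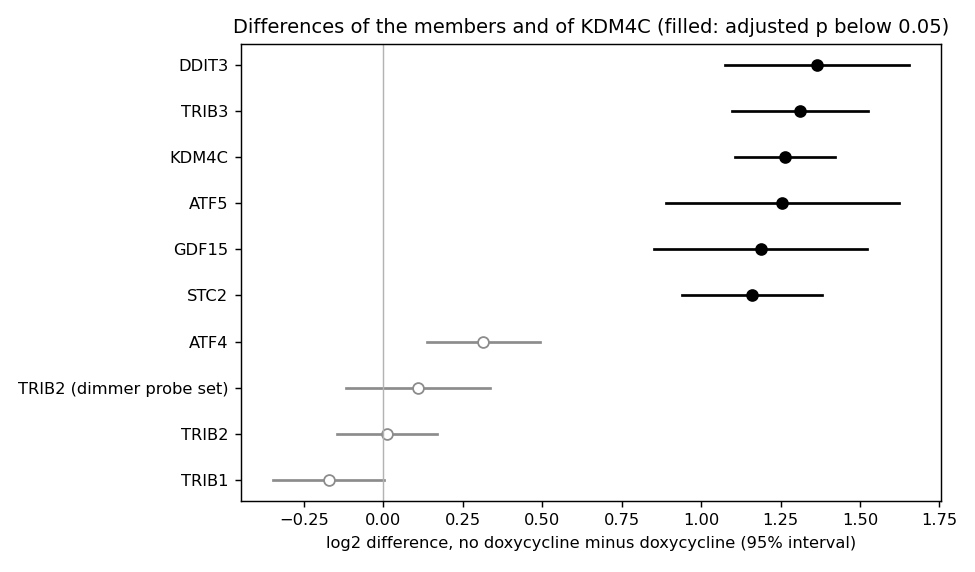
Log2 difference, no doxycycline minus doxycycline, with its 95% interval from the moderated fit (horizontal axis), for each probe set of the 8 genes and for KDM4C. The 5 called genes lie between 1.16 and 1.36, as does KDM4C at 1.27, and ATF4 at 0.31 lies between them and the probe sets of TRIB1 and TRIB2.

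With non-overlap of the groups as a cruder measure, 6 of the 8 genes were higher on every array without doxycycline (12.1% of all named genes were) and 1, TRIB1, lower (12.5% were). The 6 are the 5 called genes and ATF4.

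With 1 array left out, the 5 differences stayed between 1.08 and 1.43, while most calls were lost. Without doxycycline-treated replicate 3, ATF5 and TRIB3 still passed (limma adjusted p = 0.0422 for both), and DDIT3, STC2 and GDF15 gave 0.0505, 0.0505 and 0.0578. When any of the other 5 arrays was left out (replicates 1 and 2 with doxycycline, replicates 1, 2 and 3 without it), 0 of the 8 passed. The limma adjusted p then reached at most 0.168 for ATF5, 0.110 for DDIT3, 0.0906 for TRIB3, 0.156 for GDF15 and 0.0960 for STC2. Calls were lost over the whole array too. Of all 53617 probe sets, 133 were called higher and 50 lower with all arrays, against at most 12 and 3 with 1 left out. KDM4C also lost its call in some of these settings, with a limma adjusted p of up to 0.0696.

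Within a group, the arrays did not rank the genes alike. Replicate 3 had the highest ATF4, ATF5 and GDF15 values of its group and the lowest DDIT3, STC2 and TRIB1 values, both without and with doxycycline. With doxycycline ATF5 in replicate 3 stood 0.34 above the group mean and GDF15 0.26 above it, while DDIT3 stood 0.23 below it. TRIB3 and TRIB2 were highest in replicate 3 without doxycycline and lowest in replicate 3 with it. Thus no array was high or low for all 8 genes. The part of the replicate number in these deviations was not tested beyond the comparison over all probe sets given with the processing alternatives.

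**Figure D4:**
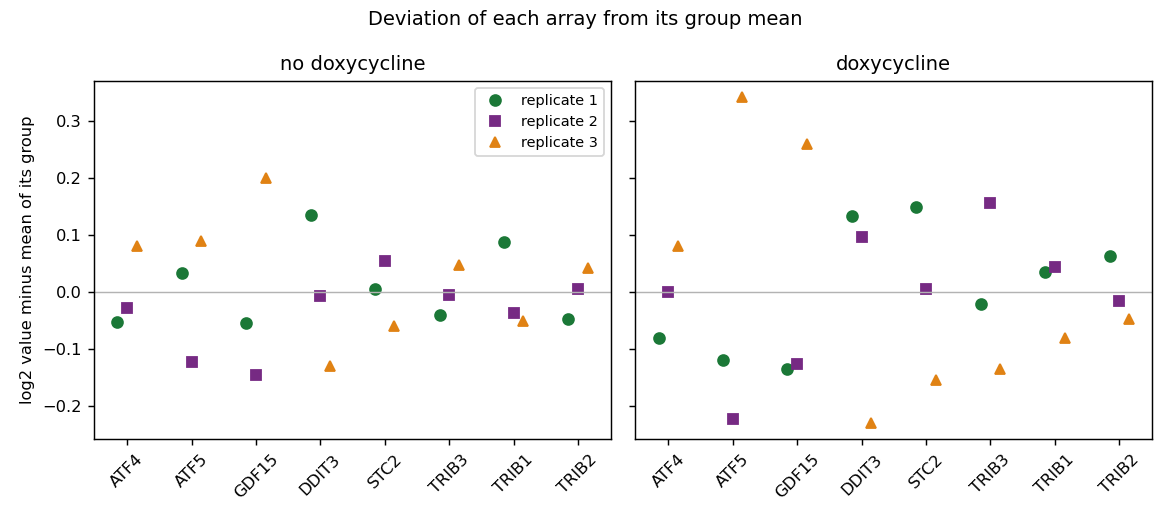
Log2 value of each array minus the mean of its own group (vertical axis) for the 8 genes, without doxycycline on the left and with it on the right. Replicate 3 (triangles) lies above the mean for ATF4, ATF5 and GDF15 and below it for DDIT3, STC2 and TRIB1 in both groups.

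Of the genes RefSeq places within 3000 bases of the 8 (a set chosen after the values of the 8 were seen), 7 were measured. DDIT3 had 3 of them. MARS1, whose annotation overlaps that of DDIT3, rose by 0.77 on the log2 scale (SE 0.06, limma adjusted p = 0.0138). MBD6, on the other side, was at 6.49 ± 0.08 without and 6.12 ± 0.11 with doxycycline (SD, n = 3 each), a difference of 0.37 that did not pass (limma adjusted p = 0.163). The row named MIR616, a precursor inside DDIT3, was at 0.45 (limma adjusted p = 0.133). It was dim, at 4.23 without doxycycline and below the median probe set with it, at 3.77. IL4I1, which overlaps ATF5, was at 0.28 (limma adjusted p = 0.190). MIR3125 inside TRIB2 was at -0.02, and MIR3189 inside GDF15 and its neighbour LRRC25 were at -0.02 and 0.05. MIR3189 (2.65 without and 2.66 with doxycycline) and LRRC25 (3.08 and 3.03) lay below the median probe set in both groups. Whether probes of overlapping genes share signal was not tested.

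Among the 14876 other named genes, those whose values followed DDIT3 most closely over the 6 arrays were RBBP5 (Pearson's r = 0.996), DPYSL3 (0.996), DNM3OS (0.996), CMKLR1 (0.995) and WDFY2 (0.994). Their log2 differences were 0.18, 0.59, 0.41, 0.81 and 0.27, all smaller than that of DDIT3. With 6 points in 2 groups, such an r mostly restates a difference between the groups, and it is given as a description only.

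Upstream of ATF4, no eIF2alpha kinase rose at the mRNA level. The list of kinases, their regulators and the phosphatase held 11 genes, of which 7 were measured, 0 passed in either direction and 6 had negative differences (median -0.08). Of all named genes, 49.4% had positive differences. EIF2AK2, the double-stranded RNA-activated kinase PKR, was at 9.43 ± 0.01 without and 9.76 ± 0.06 with doxycycline (SD, n = 3 each), a difference of -0.33 (limma adjusted p = 0.119). EIF2AK3, the endoplasmic reticulum kinase PERK, was at -0.18. EIF2AK1 (HRI) and EIF2AK4 (GCN2, the sensor of uncharged tRNA) were at -0.09 and -0.08. NCK1, an adaptor known to act on eIF2alpha phosphorylation, was the 1 positive gene, at 0.04. The phosphatase subunits PPP1R15A and PPP1R15B had no named probe set. Kinase activity and eIF2alpha phosphorylation were not measured.

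Of 24 other factors of the CREB/ATF and C/EBP families and of their bZIP relatives, 15 were measured and 0 passed (at an unadjusted p below 0.05 limma gave 5 higher and 0 lower, and 7.57% of all named genes higher and 6.87% lower). All 15 differences were positive, with a median of 0.15, where 49.4% of all named genes were positive. ATF3, a repressor that ATF4 induces, was at 3.97 ± 0.12 without and 3.57 ± 0.03 with doxycycline, a difference of 0.41 (limma adjusted p = 0.123) near the median probe set. NFE2L1, a regulator of proteasome genes, was at 0.28. ATF6, an endoplasmic reticulum stress sensor, and CREB1 were at 0.0008 and 0.02. The C/EBP genes CEBPA, CEBPD, CEBPE and CEBPZ had no named probe set.

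Of 60 other ATF4 and CHOP target genes, 39 were measured, 11 rose and 0 fell, and 36 of the 39 differences were positive (median 0.47, against -0.0020 for all named genes). Among all named genes 0.43% were called higher and 0.134% lower, and 49.4% had positive differences. The list was drawn up with results of these arrays known, so its count is no independent evidence of direction. It shares ATF3 (0.41) and JDP2 (0.05) with the list of other CREB/ATF and C/EBP factors, so the counts of these lists are not separate. ULBP1, an NKG2D ligand, SESN2, an mTORC1 inhibitor, and DDIT4, another, rose by 2.12, 1.63 and 1.30. ULBP1 lay below the median probe set with doxycycline (5.24 ± 0.25 without it, 3.12 ± 0.26 with it, SD, n = 3 each), at a level not shown to be above background, so its difference is uncertain in size. Of amino acid synthesis, ASNS (1.00), SHMT2 (0.65), PSPH (0.54) and CTH (0.51) rose, and of tRNA charging WARS1 (0.95), MARS1 (0.77) and GARS1 (0.62). The dimmer WARS1 probe set, at 3.97 without and 3.55 with doxycycline, differed by 0.42 and did not pass (limma adjusted p = 0.252). EIF4EBP1, which restrains cap-dependent translation, rose by 0.53. The 3 negative differences were those of the autophagy genes SQSTM1 (-0.15) and ATG12 (-0.09) and of CBS (-0.09), of transsulfuration. Genes tied to cell death under CHOP did not pass: PMAIP1 was at 0.71 (limma adjusted p = 0.0565), BBC3 at 0.34, BCL2L11 at 0.17 and the oxidoreductase ERO1A at 0.10. Without 1 array, 0 or 1 of the 39 passed: 1 without doxycycline-treated replicate 3 or untreated replicate 1, and 0 without any other. Calls over all probe sets fell as well, as given above.

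The last list held 19 partners and regulators of the proteins described here, with 16 measured, 0 passed in either direction and a median of 0.02. RET, the signalling receptor of GDF15, was at 9.04 ± 0.11 without and 8.77 ± 0.04 with doxycycline (limma adjusted p = 0.240), while its co-receptor GFRAL lay below the median probe set in both groups, at 3.34 without and 3.34 with doxycycline. STC1, the paralog of STC2, was at 0.33 (limma adjusted p = 0.275), and PAPPA2, a target of STC2, at -0.20 (limma adjusted p = 0.290). PAPPA2 also lay below the median probe set in both groups, at 3.23 without and 3.43 with doxycycline. FBXW11, a ligase subunit related to the one that degrades ATF4, was at -0.11. AKT1 and AKT2, kinases that TRIB3 is known to bind, were at 0.03 and 0.02, and the dimmer AKT1 probe set was at -0.04.

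**Figure D5:**
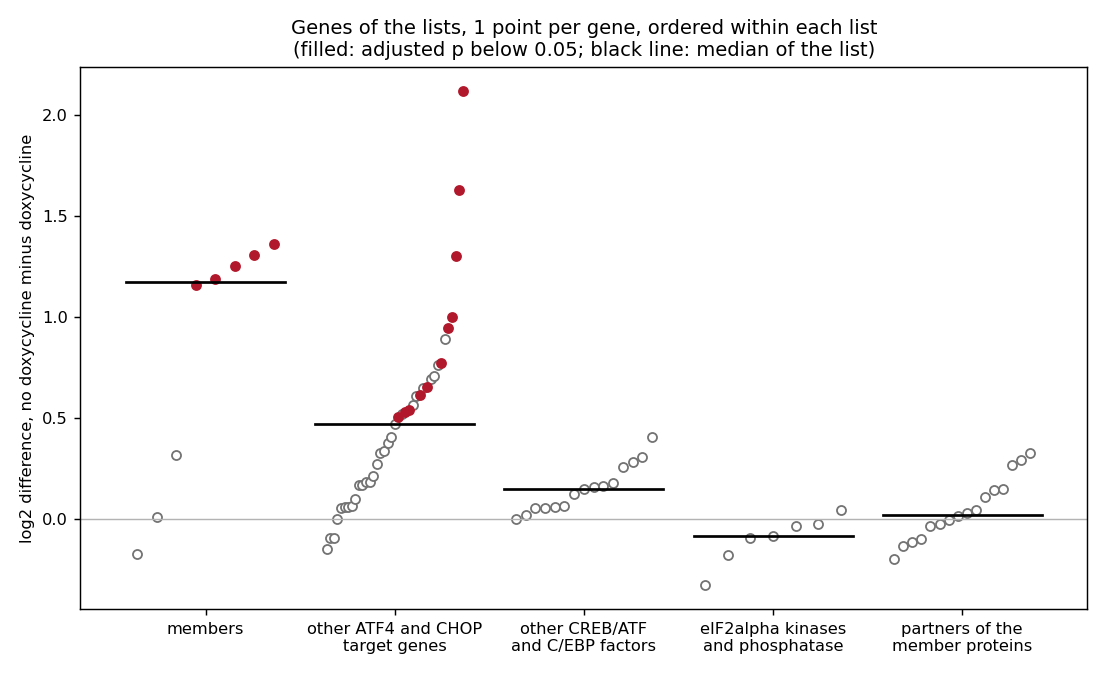
Log2 difference, no doxycycline minus doxycycline (vertical axis), of the 8 genes (labelled members) and of the measured genes of the 4 lists, 1 point per gene in rising order within its list. ATF3 and JDP2 appear both among the targets and among the CREB/ATF and C/EBP factors. Filled points passed the limma test (5 of 8 members, 11 of 39 targets, 0 in the other lists), and black lines are the medians at 1.17, 0.47, 0.15, -0.08 and 0.02 from left to right.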

How the data were processed

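Total RNA of 6 samples was hybridised to whole-transcript Affymetrix arrays, 1 array per sample, 3 per group. The deposited values are log2 expression values per probe set. The log base was read from their range (2.12 to 14.3). Per the submitters' processing notes the authors used Partek, while background correction, normalization, summarization and build are not given in these sources. Array medians lay between 3.94 and 3.96. Each group has only 3 arrays. Nothing beyond the word independent says that samples were separate cultures. The p-values thus measure the spread between these samples, which may be technical.

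Of 53617 probe sets, 16098 had 1 symbol in GEO's platform annotation, 0 several and 37519 none. All 16098 Entrez identifiers matched RefSeq, which changed 0 symbols. All probe sets were fitted with limma 3.58.1 in R 4.3.3 (no doxycycline minus doxycycline, no covariate, no filter), with Benjamini-Hochberg adjustment and a threshold of 0.05. The probe set with the highest mean stood for a gene. Gaps between 2 genes were compared by two-sided exact permutation (SciPy 1.17.1). The gap CEBPB minus CEBPG was planned and could not be computed. The fit was tested on simulated data with 3 arrays per group. It recovered 29.9% of log2 changes of 0.5, 95.5% of those of 1 and 100% of those of 2. Of its 158 calls, 8 were false. A change of 0.5 or less can thus be missed, so a gene that did not pass is not shown to be unchanged.

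Members and lists were chosen with earlier results of these data known. Named are all members, KDM4C, list genes past the threshold or with the 2 smallest p in each direction, and the 5 genes most correlated with DDIT3. Others were chosen after their values were seen. Alternatives were quantile normalization, trend with robust moderation, no dim probe sets, the mean of a gene's probe sets, a replicate block and each array left out.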

Additional observations from a re-analysis of the deposited data

How the results depend on the processing

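With quantile normalization, trend with robust moderation, no dim probe sets or the mean of a gene's probe sets, the 5 members called higher passed each time and 0 were called lower, with limma adjusted p from 0.0040 to 0.0443 for these 5 genes. ATF4 reached at best 0.0845, with trend and robust moderation. With that setting 18 target genes rose in place of 11, and 1 gene of the eIF2alpha list fell in place of 0. Over all probe sets the same setting called 255 higher and 130 lower, in place of 133 and 50. Without dim probe sets 15 target genes rose, within the 1.5 times taken as the same count. Of the 26808 probe sets then tested, 204 were called higher and 107 lower.

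With a replicate block 0 members and 0 targets were called. The 5 members had limma adjusted p from 0.118 to 0.136 and KDM4C, at an unchanged 1.27, had 0.118. The numbers are not known to pair samples: over all probe sets the deviations of same-numbered arrays correlated at -0.01, -0.01 and 0.04, against -0.03 to 0.04 for other pairs. The block called 0 of 53617 probe sets, with 6251 at an unadjusted p below 0.05 in limma. Paired permutation of the gaps cannot go below p = 0.25.

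Leaving out 1 array gave 0 to 2 members and 0 to 1 targets called, a KDM4C difference of 1.24 to 1.29, a TRIB2 difference of -0.013 to 0.043 and a GDF15 to STC2 gap of -0.11 to 0.24. Over all probe sets at most 12 were then called higher and 3 lower, in place of 133 and 50. TRIB2 turned negative without doxycycline-treated replicate 3 (-0.013) or untreated replicate 3 (-0.0096). The causes were not tested. Of the other gaps, none changed sign in these settings. No detection calls were used, so signal over background is unknown for dim probe sets.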
